A study of Mus musculus with 2 samples.

Results

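The genes of the proteasome were read out from a chromatin immunoprecipitation sequencing (ChIP-seq) experiment on FLAG-tagged cyclin D1. They were taken as the protein-coding genes of build NCBIM37 (mm9) whose symbol starts with Psma, Psmb, Psmc, Psmd, Psme, Psmf or Psmg, which gave 50 genes of 22348 on the autosomes and X. Psmd14 and Psmb9 were each listed a second time and counted once. The 50 genes fell into 14 for the constitutive 20S core (7 of the alpha ring and 7 of the beta ring), 17 for the 19S regulatory particle (6 ATPases and 11 other subunits), 5 for the immunoproteasome, 2 for tissue-specific core subunits, 3 for other activators and an inhibitor, and 7 for assembly chaperones. The remaining 2 match by symbol only: Psmc3ip encodes a factor of meiotic recombination and not a proteasome subunit, and Psme2b-ps is named as a pseudogene.

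The proteasome degrades proteins marked with ubiquitin. Its 20S core is a barrel of stacked rings, in which the alpha subunits form the gate and the beta subunits line the chamber, with Psmb5, Psmb6 and Psmb7 as the catalytic ones. The 19S particle caps the barrel, binds ubiquitin chains, removes them and unfolds substrates with a ring of ATPases. After interferon gamma, Psmb8, Psmb9 and Psmb10 take the places of Psmb5, Psmb6 and Psmb7 and, with the PA28 cap made of Psme1 and Psme2, favour peptides for antigen presentation. Cyclin D1, which activates the kinases CDK4 and CDK6 in G1, is itself degraded by the proteasome.

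There were 2 libraries, 1 per antibody. In the first, chromatin was precipitated with the anti-FLAG M2 antibody and in the second with normal mouse IgG, the background control. Both came from untreated mouse embryonic fibroblasts of the 3T3 kind with the genotype CCND1-/- Flag-CCND1, which lack the endogenous cyclin D1 gene and carry FLAG-tagged cyclin D1 from the retroviral vector MSCV, so the tagged protein does not come from its own promoter. Whether the line is 1 clone is not stated in the labels, and as no RNA was measured the fibroblast label was not checked against markers. The anti-FLAG library held 9259840 tags and the IgG library 9312346. Introns 1 to 3 of Ccnd1 held 1 anti-FLAG and 0 IgG tags over 4860 bp, against 17.04 and 17.1 expected at the genome-wide means. With a single library for each antibody, no spread between replicates could be measured. Each test below compares these 2 libraries and not the antibodies in general, and intervals cover counting error only.

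The promoters shown are those of the members with the highest and lowest ratio among the tested core and 19S genes, and those of the interferon-inducible catalytic subunits (Psmb8, Psmb9 and Psmb10), on which the comparison of subunit classes turns. Each is the reference sequence of NCBIM37 from 250 bases before to 50 after the annotated transcription start site (TSS), 5′ to 3′ on the strand of the gene, with the TSS at position 0. Capitals mark matches, on either strand, to CCAAT (the NF-Y box), TGACNNNGC (the core of the antioxidant response element, ARE, through which Nrf1 and Nrf2 act on proteasome genes), the interferon-stimulated response element (core), TTCNNNGAA (gamma-activated site), TGACGTCA (the cAMP response element, CRE), GGGCGG (the GC box) and TATAAA. Psmb5 lies at chr14:55236802-55237101 (minus strand), Psma5 at chr3:108059594-108059893 (plus strand), Psmd14 at chr2:61549501-61549800 (plus strand), Psmc2 at chr5:21290851-21291150 (plus strand), Psmb8 at chr17:34334416-34334715 (plus strand), Psmb9 at chr17:34324660-34324959 (minus strand) and Psmb10 at chr8:108462243-108462542 (minus strand).
Psmb5: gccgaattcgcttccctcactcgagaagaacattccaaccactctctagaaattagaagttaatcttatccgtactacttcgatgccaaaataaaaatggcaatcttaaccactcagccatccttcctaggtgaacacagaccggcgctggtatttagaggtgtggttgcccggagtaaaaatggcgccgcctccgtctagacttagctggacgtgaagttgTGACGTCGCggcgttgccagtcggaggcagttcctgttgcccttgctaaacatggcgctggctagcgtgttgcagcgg
Psma5: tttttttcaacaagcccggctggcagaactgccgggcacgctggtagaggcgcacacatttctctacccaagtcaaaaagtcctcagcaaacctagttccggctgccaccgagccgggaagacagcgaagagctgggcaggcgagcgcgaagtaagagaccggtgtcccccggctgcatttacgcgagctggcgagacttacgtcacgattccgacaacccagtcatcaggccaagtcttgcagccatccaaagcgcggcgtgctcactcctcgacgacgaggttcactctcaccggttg
Psmd14: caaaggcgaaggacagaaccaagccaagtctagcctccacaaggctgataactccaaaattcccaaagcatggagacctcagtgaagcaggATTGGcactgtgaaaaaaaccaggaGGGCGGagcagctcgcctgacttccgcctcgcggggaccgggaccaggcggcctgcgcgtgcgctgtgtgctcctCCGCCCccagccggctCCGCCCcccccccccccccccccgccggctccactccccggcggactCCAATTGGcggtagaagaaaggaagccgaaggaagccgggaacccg
Psmc2: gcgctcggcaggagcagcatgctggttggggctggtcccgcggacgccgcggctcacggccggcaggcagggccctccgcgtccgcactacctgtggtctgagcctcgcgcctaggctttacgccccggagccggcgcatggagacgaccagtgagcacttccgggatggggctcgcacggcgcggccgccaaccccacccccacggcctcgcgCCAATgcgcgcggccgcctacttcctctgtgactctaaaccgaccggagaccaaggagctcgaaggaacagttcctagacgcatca
Psmb8: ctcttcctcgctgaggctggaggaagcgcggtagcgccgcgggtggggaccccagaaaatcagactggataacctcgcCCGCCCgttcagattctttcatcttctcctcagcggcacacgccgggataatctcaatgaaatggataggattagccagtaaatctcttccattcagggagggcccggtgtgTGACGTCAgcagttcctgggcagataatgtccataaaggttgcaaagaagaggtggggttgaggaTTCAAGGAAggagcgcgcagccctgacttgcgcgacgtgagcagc
Psmb9: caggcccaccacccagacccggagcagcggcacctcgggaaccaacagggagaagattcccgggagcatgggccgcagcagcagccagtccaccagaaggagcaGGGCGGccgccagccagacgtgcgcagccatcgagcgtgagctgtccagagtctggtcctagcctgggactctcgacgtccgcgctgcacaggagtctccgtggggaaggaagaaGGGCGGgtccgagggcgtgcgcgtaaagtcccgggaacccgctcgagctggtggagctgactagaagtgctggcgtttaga
Psmb10: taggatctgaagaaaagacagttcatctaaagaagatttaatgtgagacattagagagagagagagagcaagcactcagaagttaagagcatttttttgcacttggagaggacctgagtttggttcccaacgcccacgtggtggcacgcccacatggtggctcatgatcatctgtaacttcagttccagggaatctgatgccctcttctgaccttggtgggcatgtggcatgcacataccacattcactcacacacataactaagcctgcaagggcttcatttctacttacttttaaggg

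Psmb5 had the highest ratio at 1 kb of the tested members, and its ARE core starts at position -28. Psmd14, the highest of the 19S genes, has 3 CCAAT matches, of which a pair at positions 4 and 7 overlap each other on opposite strands, and 3 GC boxes. Psmc2, the lowest of the 19S genes, has a CCAAT box at position -36. Psma5, the lowest of the core genes at 1 kb once 1 tag is added to each count and tied with Psmb1 before that, matched none of the 7 motifs, as did Psmb10. Psmb8 has a GC box at position -172, a full CRE at position -60 and a gamma-activated site at position 5, and Psmb9 2 GC boxes. A match describes letters in this window and is no measured binding site. For Psmb8 and Psmb9 the start given by RefSeq lies outside the window, 474 and 434 bp downstream.

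Anti-FLAG recovered more tags than IgG around most of these promoters, to about the extent seen at tested promoters in general. Within 1 kb of the TSS, 49 of the 50 genes lay above and 1, Psmf1, below a scaled ratio of 1. Of all 22348 protein-coding genes 17047 lay above and 4653 below, and 11407 of the 22348 held under 20 tags. The members' median count was 21 tags with anti-FLAG and 9 with IgG, against 11 and 7 over all 22348 protein-coding genes. Their median log2 ratio, with IgG scaled to the library totals and 1 tag added to each count, was 0.98 (range -0.99 to 2.47), against 0.59 over all genes and 0.88 over all promoters with enough tags to test. A promoter was tested when it held at least 20 tags in both libraries together, which 43 of the 50 did. The 7 below this were Psma7, Psmb8, Psmb9, Psma8, Psmb11, Psmf1 and Psme2b-ps. Of the 43 tested genes 14 were higher with anti-FLAG and 0 lower (2-sided exact binomial test, Benjamini-Hochberg adjusted over all tested promoters at 0.05), a share of 32.6% beside 29.7% higher and 0.0914% lower of all 10941 tested promoters. At the unadjusted threshold 0 members were lower. A ratio of at least 2, with 1 tag added to each count, was reached by 22 of the 43, beside 44.3% of all tested promoters, and 0 were at least 2-fold lower, beside 0.649%. When the ratio expected from GC content is taken out, as set out further on, 1 of the 43 members was higher at 1 kb, Psma1, beside 1.19% of all tested promoters, and 0 were lower, beside 0.0183%.

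Nearer to the TSS the contrast was larger. Within 500 bp the members' median count was 12.5 tags with anti-FLAG and 4 with IgG, with a median log2 ratio of 1.36, against 6 and 3 tags and 0.81 over all genes. With a minimum of 10 tags, 42 were tested and 17 were higher, 40.5% beside 33.3% of all 10370 tested promoters, and 0 were lower, beside 0.116%. The median log2 ratio of the tested members was 1.46, against 1.23 over all tested promoters. A ratio of at least 2 was reached by 33 of the 42, beside 63.1% of all tested promoters, and 0 were at least 2-fold lower, beside 1.38%.

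**Figure D1:**
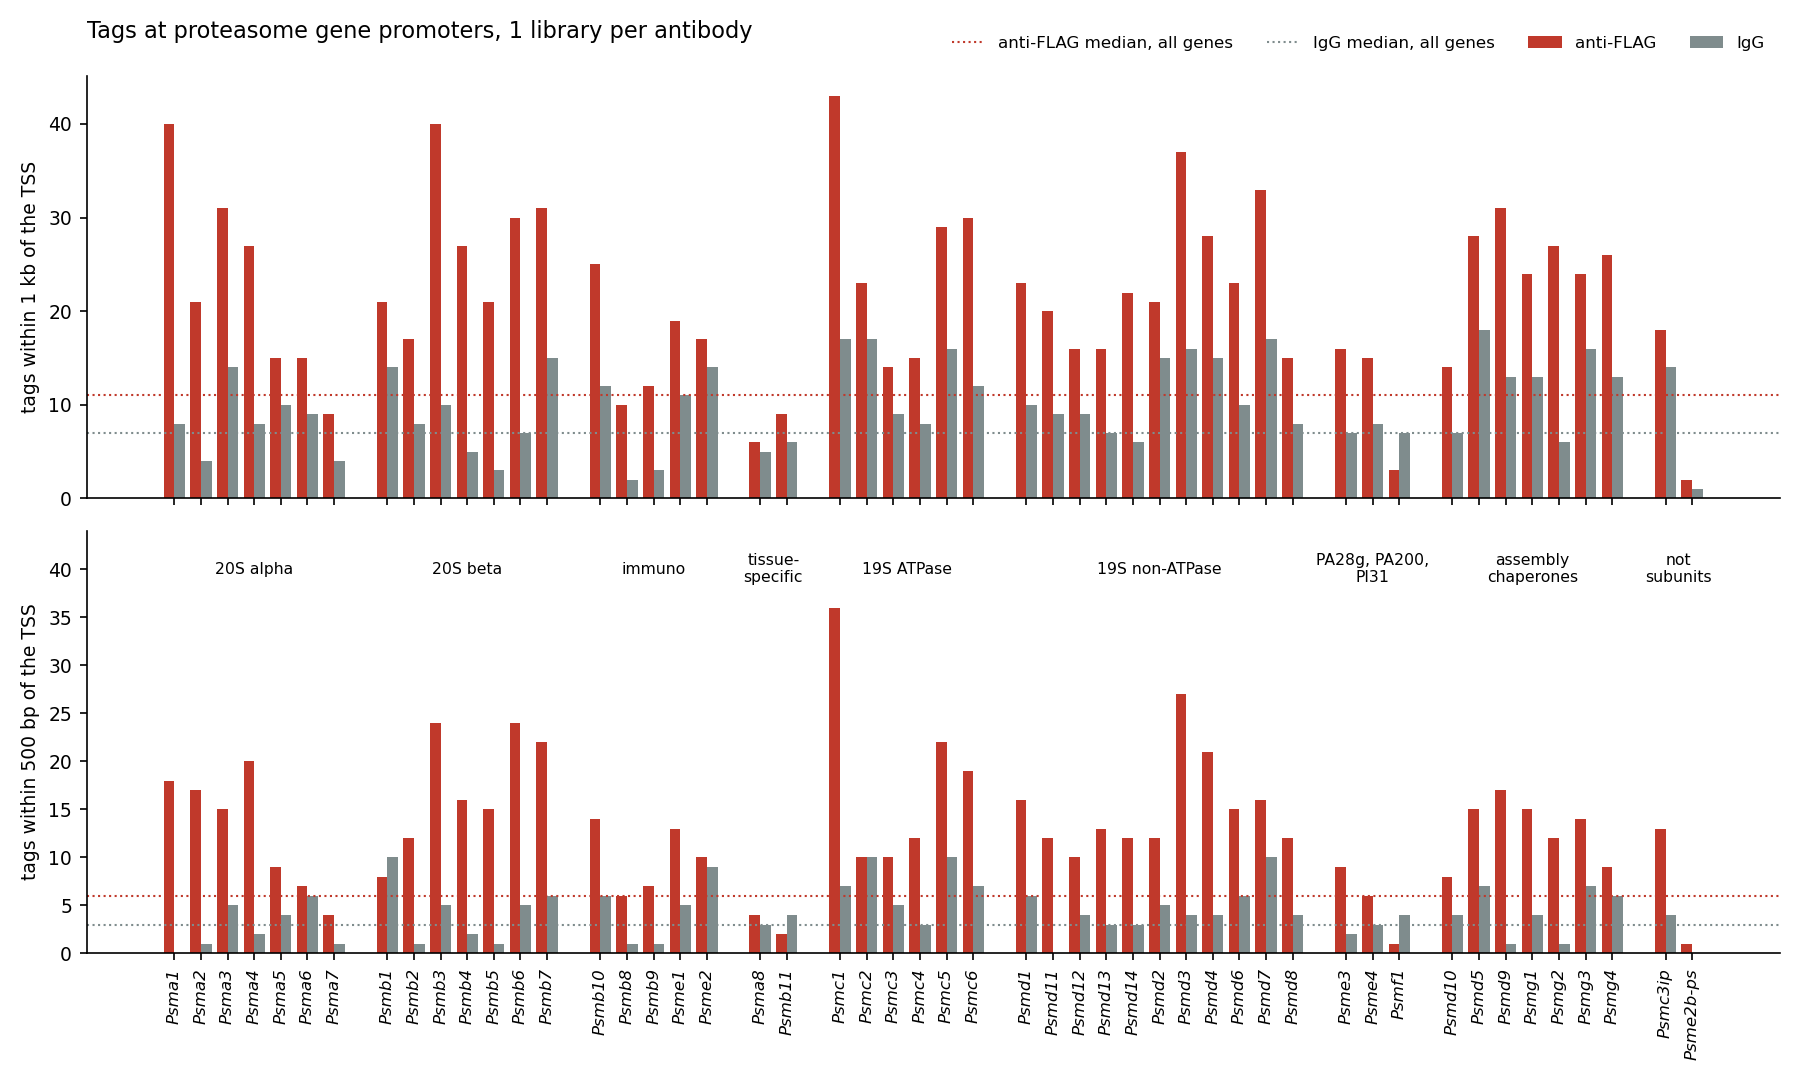
Tags (y axis, counts) of the anti-FLAG library (red bars) and the IgG library (grey bars) for each of the 50 genes (x axis, by class), within 1 kb of the TSS in the upper panel and within 500 bp in the lower; each bar is 1 library and dotted lines are the medians of all protein-coding genes. At 1 kb the anti-FLAG bar is the taller one for every gene but Psmf1, and Psmc1, Psma1 and Psmb3 reach 40 tags or more.

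Of the tested genes of the 20S core, 8 of 13 were higher at 1 kb (61.5%, beside 29.7% of all tested promoters). Of the alpha ring, 4 of 6 tested genes were higher at 1 kb, and the median log2 ratio of all 7 was 1.10. Psma1 (ENSMUSG00000030751.10, TSS on chromosome 7 at position 121419632) had 40 anti-FLAG tags and 8 IgG tags at 1 kb (5.03-fold, exact 95% interval 2.32 to 12.4, exact adjusted p = 0.000178). Within 500 bp it had 18 against 0, at least 6.03-fold higher with 3 IgG tags taken as the floor (exact 95% lower limit 4.42-fold from the counts themselves, exact adjusted p = 0.000300), so that all of its 8 IgG tags lay farther out. Psma2, which starts within 2 kb of Mrpl32, a mitochondrial ribosomal protein gene, had 21 anti-FLAG tags and 4 IgG tags at 1 kb (5.28-fold, exact 95% interval 1.78 to 21.2, exact adjusted p = 0.00565). Within 500 bp Psma2 had 17 against 1 (exact adjusted p = 0.00171), so that most of its anti-FLAG tags and few of its IgG tags lay near the start. Psma4 had 27 anti-FLAG tags and 8 IgG tags (3.39-fold, exact 95% interval 1.50 to 8.65, exact adjusted p = 0.00955), with the start of AY074887 within 2 kb. Psma3 had 31 anti-FLAG tags and 14 IgG tags (exact adjusted p = 0.0402) and did not pass within 500 bp, at 15 against 5 (exact adjusted p = 0.0683). Psma5 and Psma6 did not pass, with 15 against 10 and 15 against 9 tags, and Psma7 had 9 against 4.

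Of the beta ring, 4 of 7 genes were higher at 1 kb and 6 of 7 within 500 bp, beside 29.7% and 33.3% of all tested promoters, and the median log2 ratio at 1 kb was 1.91. Psmb5, the chymotrypsin-like catalytic subunit (ENSMUSG00000022193.5, TSS on chromosome 14 at position 55236851), had 21 anti-FLAG tags and 3 IgG tags at 1 kb (7.04-fold, exact 95% interval 2.10 to 36.9, exact adjusted p = 0.00277). It stood at percentile 98.2 of all tested promoters by log2 ratio, on few IgG tags. Psmb6, the caspase-like subunit, had 30 anti-FLAG tags and 7 IgG tags (4.31-fold, exact 95% interval 1.86 to 11.6, exact adjusted p = 0.00224). Psmb7, the trypsin-like subunit, had 31 anti-FLAG tags and 15 IgG tags at 1 kb, which did not pass (exact adjusted p = 0.0578), and 22 against 6 within 500 bp, which did (exact adjusted p = 0.0137). Within 500 bp Psmb5 had 15 against 1 and Psmb6 24 against 5 (exact adjusted p = 0.00358 and 0.00396). All catalytic subunits of the constitutive core were thus higher within 500 bp, and none of them passed there with the GC correction set out further on. Of the structural subunits, Psmb3 and Psmb4 were higher at both widths, with 40 against 10 and 27 against 5 tags at 1 kb (exact adjusted p = 0.000677 and 0.00171). Psmb2 had 17 against 8 at 1 kb (exact adjusted p = 0.152) and 12 against 1 within 500 bp (exact adjusted p = 0.0114). Psmb1 was the exception, with 21 against 14 at 1 kb and 8 against 10 within 500 bp, a log2 ratio of -0.28 (exact adjusted p = 0.870), and starts within 2 kb of Tbp, the gene of the TATA-binding protein.

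Genes of the 19S particle had anti-FLAG counts like those of the core and more IgG tags. Of the ATPases 2 of 6 and of the other subunits 2 of 11 were higher at 1 kb, 4 of 17 together, or 23.5%, below the 29.7% of all tested promoters. The median log2 ratios were 0.83 and 1.08. The highest anti-FLAG count of all members belonged to the ATPase gene Psmc1 (ENSMUSG00000021178.8, TSS on chromosome 12 at position 101348396), with 43 anti-FLAG tags and 17 IgG tags within 1 kb (2.54-fold, exact 95% interval 1.42 to 4.76, exact adjusted p = 0.00729) and 36 against 7 within 500 bp (5.17-fold, exact 95% interval 2.27 to 13.8, exact adjusted p = 0.000400). The 250 bp before its TSS alone held 29 anti-FLAG and 4 IgG tags. Psmc6 was higher at 1 kb with 30 against 12 (exact adjusted p = 0.0248) but not within 500 bp (exact adjusted p = 0.0547). The other ATPase genes, Psmc2, Psmc3, Psmc4 and Psmc5, had 14 to 29 anti-FLAG and 8 to 17 IgG tags, and none passed at either width. Psmc2 had the lowest ratio of the 19S genes, with 23 against 17 tags (log2 ratio 0.42, exact adjusted p = 0.469), and 10 against 10 within 500 bp.

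Among the 19S subunits without ATPase activity, Psmd14, the deubiquitinase of the lid, had 22 anti-FLAG tags and 6 IgG tags at 1 kb (3.69-fold, exact 95% interval 1.45 to 11.1, exact adjusted p = 0.0144) and 12 against 3 within 500 bp (exact adjusted p = 0.0586). Psmd3, a lid subunit, had 37 anti-FLAG tags and 16 IgG tags at 1 kb (exact adjusted p = 0.0199) and 27 against 4 within 500 bp (6.79-fold, exact 95% interval 2.37 to 26.7, exact adjusted p = 0.000793). A further 3 were higher within 500 bp only: the lid subunit gene Psmd11 with 12 against 0 (at least 4.02-fold with the floor of 3 tags, exact 95% lower limit 2.79-fold from the counts, exact adjusted p = 0.00342), the ubiquitin receptor gene Psmd4 with 21 against 4 (exact adjusted p = 0.00514) and Psmd13 with 13 against 3 (exact adjusted p = 0.0395). At 1 kb these had 20 against 9, 28 against 15 and 16 against 7, and most of their IgG tags lay beyond 500 bp. Psmd2, a scaffold subunit of the base, had 21 against 15 at 1 kb (log2 ratio 0.47, exact adjusted p = 0.443), the lowest of this class. The remaining Psmd1, Psmd6, Psmd7, Psmd8 and Psmd12 passed at neither width, with log2 ratios of 0.77 to 1.13 at 1 kb.

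Of the immunoproteasome genes 0 of 3 tested were higher at 1 kb and 0 of 3 within 500 bp by the exact binomial test, beside 29.7% and 33.3% of all tested promoters. At an unadjusted exact p under 0.05 the counts were 1 at 1 kb, Psmb10, and 0 within 500 bp. Their tags were few, and the missing calls do not show that the libraries were alike there. Psmb8, the inducible counterpart of Psmb5 (ENSMUSG00000024338.8, TSS on chromosome 17 at position 34334666), had 10 anti-FLAG tags and 2 IgG tags at 1 kb, a ratio of 5.03 (exact 95% interval 1.07 to 47.2). Psmb9, the counterpart of Psmb6, had 12 anti-FLAG tags and 3 IgG tags, a ratio of 4.02 (1.09 to 22.2), and starts within 2 kb of Tap1, a peptide transporter gene. Neither reached the tag minimum, and both intervals lay above 1 and also covered the ratio of Psmb5. The ratio expected from GC content, set out further on, was 1.73 at Psmb8 and 2.17 at Psmb9, above both lower limits. With this expected ratio taken out, their log2 ratios were 1.31 and 0.80, in place of 1.88 and 1.71. Psmb10, the counterpart of Psmb7, had 25 anti-FLAG tags and 12 IgG tags (2.10-fold, exact 95% interval 1.01 to 4.58, exact adjusted p = 0.0859), beside 2.08-fold at Psmb7. Of the PA28 genes, Psme1 had 19 against 11 (exact adjusted p = 0.248) and Psme2, which starts within 2 kb of Rnf31, 17 against 14 (log2 ratio 0.27, exact adjusted p = 0.696). The median log2 ratio of the 5 was 1.01, between that of the core (1.37) and that of the 19S genes (0.93).

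Among the assembly chaperones, 2 of 7 were higher at 1 kb and 3 of 7 within 500 bp, beside 29.7% and 33.3% of all tested promoters (median log2 ratio 0.91 at 1 kb). Psmg2, a chaperone of core assembly, had 27 anti-FLAG tags and 6 IgG tags (4.53-fold, exact 95% interval 1.83 to 13.4, exact adjusted p = 0.00307), with the start of Cep76 within 2 kb, and Psmd9, a chaperone of the 19S base, 31 against 13 (exact adjusted p = 0.0280). Psmd9 had 17 against 1 within 500 bp (exact adjusted p = 0.00171), and Psmg1, the partner of Psmg2, 15 against 4 (exact adjusted p = 0.0388). Psmg3 had the lowest ratio of this class at 1 kb, 24 against 16 (log2 ratio 0.56, exact adjusted p = 0.318). Psmg4, Psmd5 and Psmd10 passed at neither width. Psme3 and Psme4, which encode the activators PA28 gamma and PA200, had 16 against 7 and 15 against 8 (exact adjusted p = 0.134 and 0.249), and Psmf1, which encodes the inhibitor PI31, 3 against 7. Psma8, a testis subunit on chromosome 18, had 6 against 5 and Psmb11, the subunit of thymic cortex, 9 against 6. Psmc3ip had 18 against 14 (log2 ratio 0.35, exact adjusted p = 0.603) and Psme2b-ps 2 against 1.

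**Figure D2:**
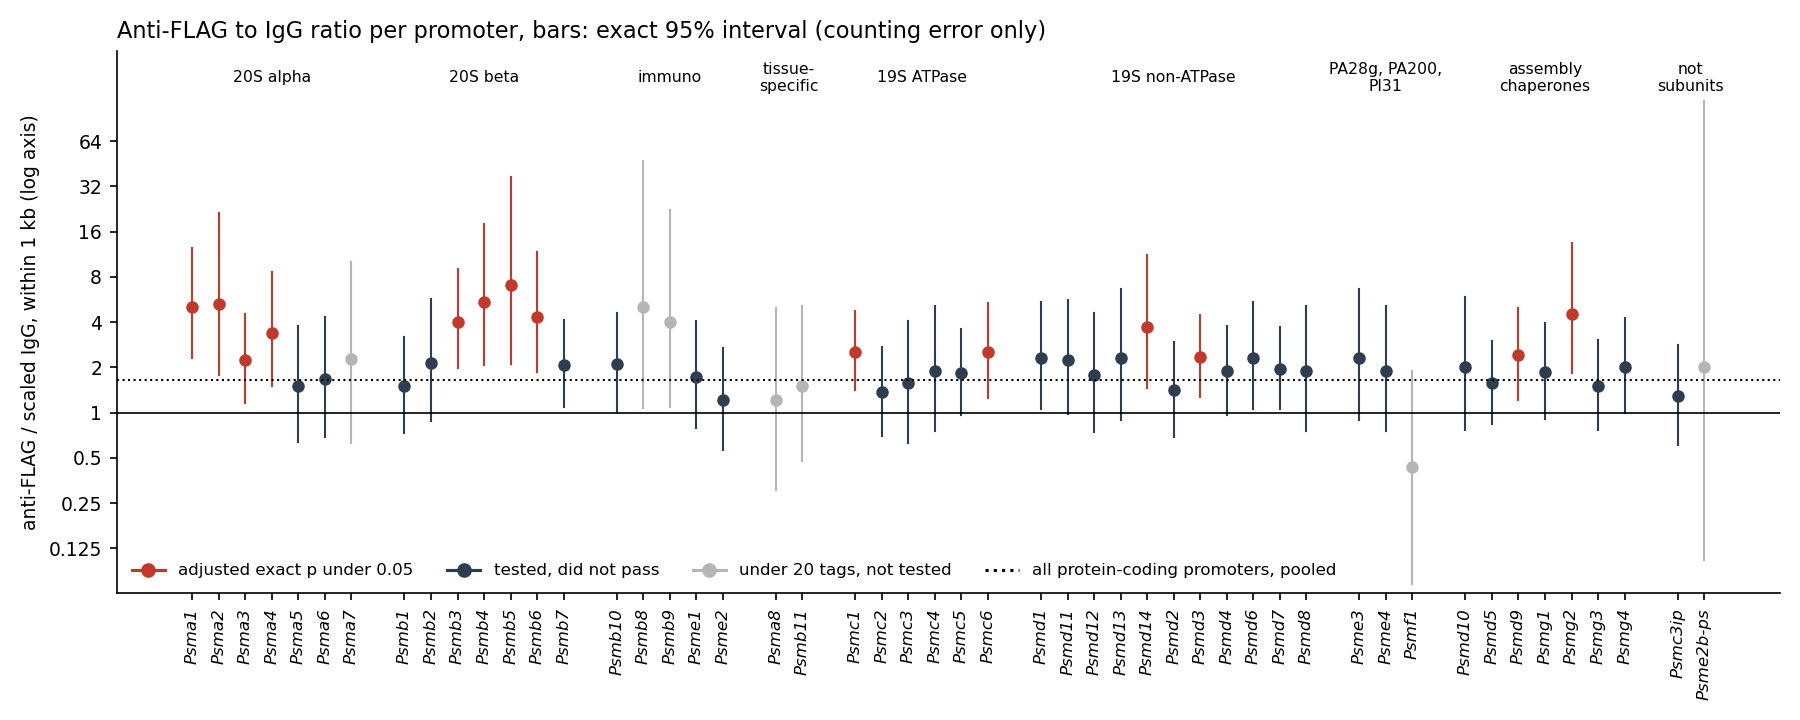
Ratio of anti-FLAG to scaled IgG tags within 1 kb of the TSS (y axis, log scale) for each gene (x axis, by class), with exact 95% intervals for counting error; colour gives the outcome of the test over all promoters, and the dotted line is the pooled ratio of all protein-coding promoters, 1.66. Psmb5 has the highest point, at 7.04, with an interval of 2.10 to 36.9, and most intervals overlap each other.

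The core and 19S genes had like mean counts with anti-FLAG, and the core had fewer IgG tags. Within 500 bp the core genes had a mean of 15.1 anti-FLAG and 3.50 IgG tags per gene, the 19S genes 16.2 and 5.35, the immunoproteasome genes 10 and 4.40, and all protein-coding genes 7.33 and 3.34. The pooled ratio at 1 kb, with overlapping windows counted once and exact 95% intervals in brackets here and below, was 2.92 (2.36 to 3.62) for the core, 2.04 (1.72 to 2.43) for the 19S genes and 1.99 (1.36 to 2.95) for the immunoproteasome genes, against 1.66 (1.65 to 1.67) for all promoters. Within 500 bp it was 4.33 (3.16 to 6.04), 3.04 (2.39 to 3.90) and 2.29 (1.36 to 3.96) in the same order of classes, against 2.14 (2.12 to 2.16). The intervals of the 3 classes overlap at 500 bp and at 1 kb, and the difference between classes was not tested. By calls, 8 of 13 core genes (61.5%) and 4 of the 17 genes of the 19S particle (23.5%) were higher at 1 kb, beside 29.7% of all tested promoters. Within 500 bp they were 9 of 13 and 5 of 17, beside 33.3%.

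Anti-FLAG tags of the core and 19S genes were densest in the 250 bp before the TSS. In the bin centred at position -125, which covers the 250 bp before the TSS, the core genes had 24.3 anti-FLAG and 4.86 IgG tags per kb per gene, the 19S genes 32.5 and 7.29, the immunoproteasome genes 12 and 5.60, and all protein-coding genes 9.32 and 3.14. Anti-FLAG was thus densest there at the 19S genes, and Psmc1 with 29 and Psmd3 with 18 tags supplied 47 of their 138 tags in this bin. At least 5 anti-FLAG tags lay in it for 9 of 14 core genes, 13 of 17 genes of the 19S particle, 1 of 5 immunoproteasome genes and 17.2% of all protein-coding genes. In the bin after the TSS, centred at position 125, the core had 14.9 and 1.43 tags per kb per gene, the 19S genes 15.5 and 2.82, the immunoproteasome genes 11.2 and 4, and all genes 6.69 and 2.25. Both libraries of the core and 19S genes were lower there than before the TSS, and anti-FLAG stayed above IgG. The immunoproteasome genes had no single peak, with 12.8 and 2.40 in the bin centred at position 1125.

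**Figure D3:**
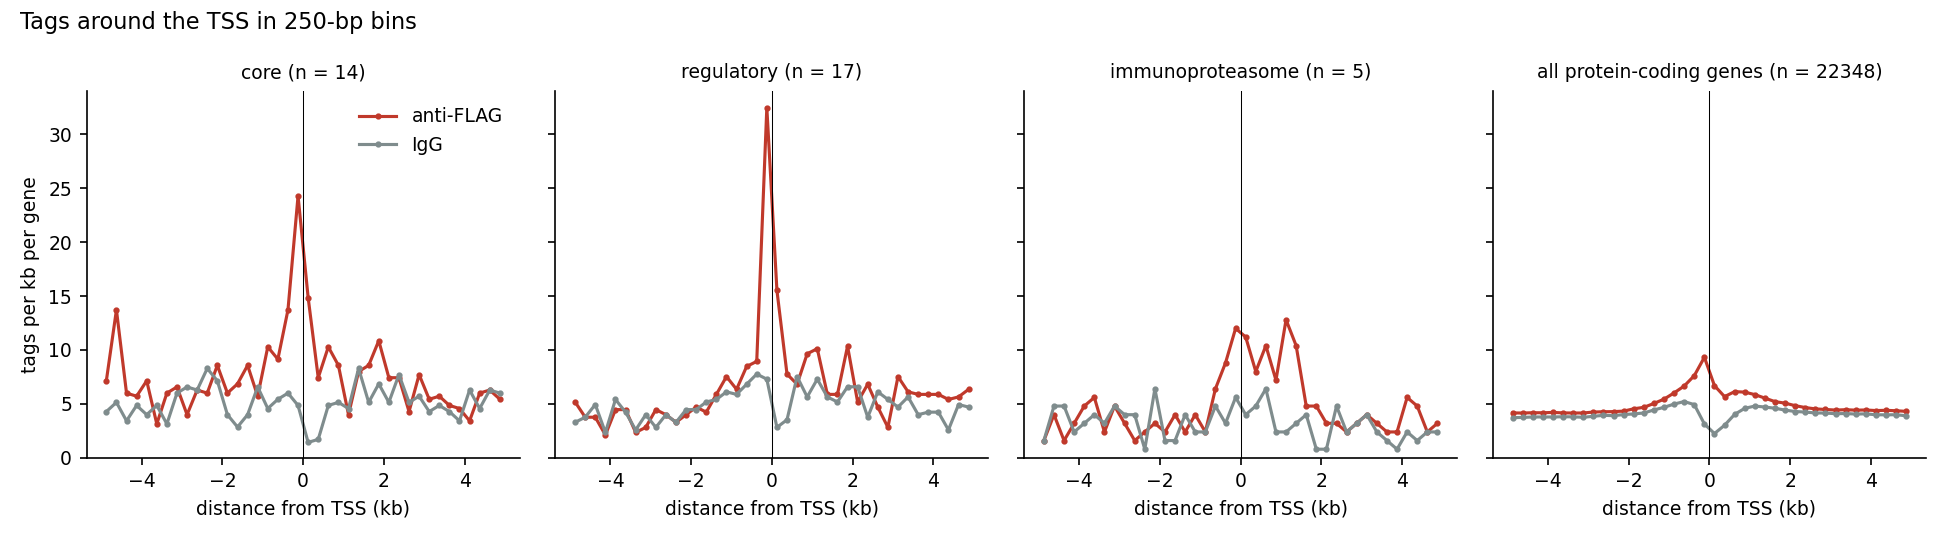
Tags per kb per gene (y axis) by distance from the TSS in kb (x axis, direction of transcription to the right) in 250-bp bins, for the core, 19S (regulatory), immunoproteasome and all protein-coding genes; red is anti-FLAG and grey is IgG, 1 library each. The core and 19S panels peak in the bin before the TSS at 24.3 and 32.5, the immunoproteasome panel is broader and lower, and the far upstream point of the core panel holds 24 tags of Psma3 alone.

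Away from the TSS the pooled ratios of the core, of the 19S genes and of all genes were nearer to 1. Those of the immunoproteasome genes lay between 1.66 and 1.95. The ratio expected from GC content is not taken out of these values. The pooled ratio of the core was 1.93 (1.43 to 2.61) from 500 bp to 1 kb and 1.25 (1.06 to 1.49) from 1 to 2.5 kb. For the 19S genes it was 1.22 (0.938 to 1.58) from 500 bp to 1 kb and 1.16 (0.984 to 1.37) from 1 to 2.5 kb, for the immunoproteasome genes 1.66 (0.924 to 3.05) from 500 bp to 1 kb and 1.77 (1.19 to 2.66) from 1 to 2.5 kb, and for all protein-coding genes 1.30 (1.29 to 1.31) from 500 bp to 1 kb and 1.13 (1.12 to 1.14) from 1 to 2.5 kb. Over the gene bodies, from 1 kb past the TSS to the annotated end, it was 1.07 (0.990 to 1.16) for the core, 1.08 (1.02 to 1.15) for the 19S genes, 1.95 (1.28 to 3.03) for the immunoproteasome genes and 1.03 (1.02 to 1.03) for all genes. Within 1 kb of the gene ends the values were 1.20 (0.940 to 1.54), 0.923 (0.731 to 1.16), 1.66 (0.965 to 2.92) and 1.14 (1.13 to 1.15). The immunoproteasome genes are short, and their bodies held 68 anti-FLAG and 35 IgG tags in all, of which Psmb10 had 20 and 6 and Psmb9 19 and 11. The 19S ATPase gene Psmc3, whose promoter did not pass, had 119 anti-FLAG and 47 IgG tags over its body, a ratio of 2.55 (1.80 to 3.65), the highest body ratio among members with over 100 body tags and chosen for mention after its values were seen.

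**Figure D4:**
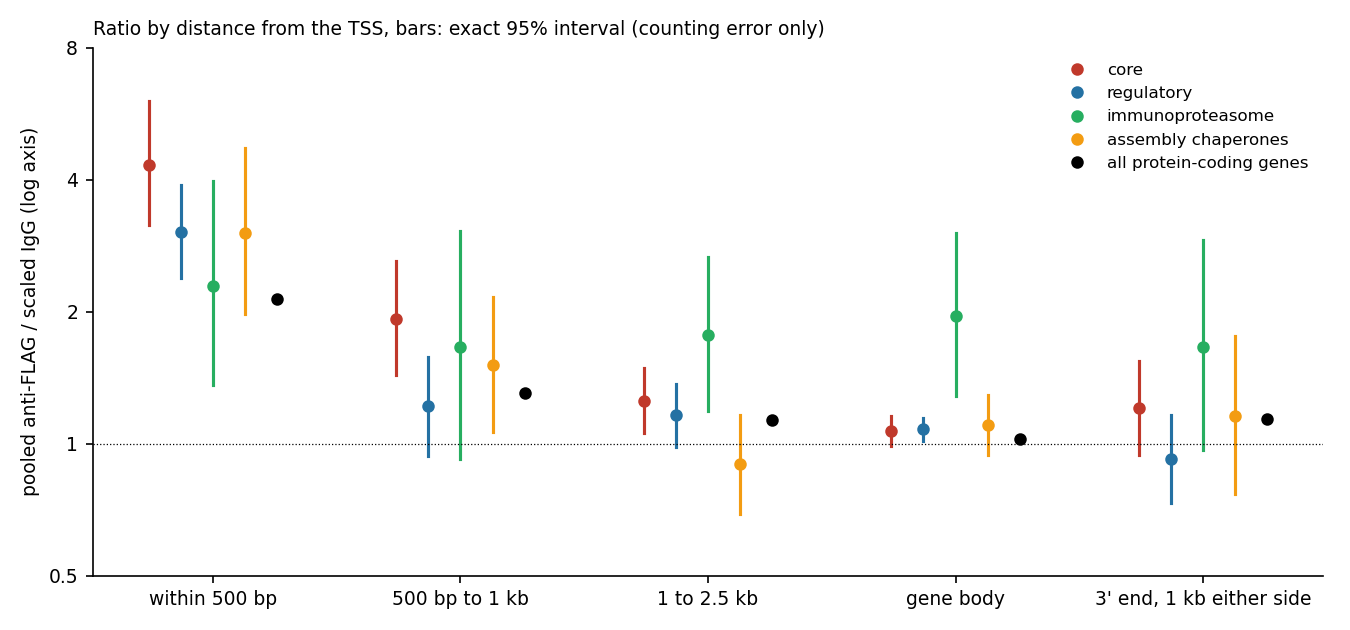
Pooled ratio of anti-FLAG to scaled IgG tags (y axis, log scale) by distance from the TSS, over gene bodies and at 3′ ends (x axis), with exact 95% intervals for counting error, for 4 classes and all protein-coding genes. Ratios within 500 bp run from 2.29 for the immunoproteasome genes to 4.33 for the core, and over gene bodies the core and 19S genes lie at 1.07 and 1.08.

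The anti-FLAG library held more tags than the IgG library in GC-rich DNA also far from any TSS, and the ratios were therefore computed again against the ratio of such windows. In 500-bp windows over 10 kb from any TSS the scaled anti-FLAG to IgG ratio was 0.955 at 40 to 42% GC, 1.34 at 50 to 52% and 2.18 at 60 to 62%. Member promoters had a median GC content of 50.5% within 1 kb (range 40.98 to 67.2%), close to 51.1% for all genes. The core stood at 49.2%, the 19S genes at 50.6% and the immunoproteasome genes at 56.3%. When the ratio expected from GC was taken from these distant windows, 1 of 43 members was higher at 1 kb, Psma1 (log2 ratio 1.94, exact adjusted p = 0.0163), beside 1.19% of all tested promoters. Within 500 bp 2 of 42 were higher, Psma1 (exact adjusted p = 0.0463) and Psmc1 (log2 ratio 1.88, exact adjusted p = 0.0327), beside 0.82%, and none was lower. The other 13 members called at 1 kb did not pass after the correction, with exact adjusted p from 0.0696 for Psmb4 to 0.596 for Psmd3. Their corrected log2 ratios ran from 0.57 to 2.23, and stayed high at Psmb5 (2.23, against 2.47 uncorrected), Psma2 (2.02, against 2.14) and Psmb4 (1.89, against 2.23). After correction the median log2 ratio at 1 kb was 1.04 for the core, 0.56 for the 19S genes, 0.68 for the immunoproteasome genes, 0.55 for all members and 0.19 for all protein-coding genes. Of the 50 members 45 stayed above a ratio of 1, beside 13279 of all 22348 protein-coding genes, of which 11407 held under 20 tags. Psme2, at 57.2% GC, moved to -0.52, and Psma7, at 67.2%, to -0.19.

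Among the tested members, which span a narrow range of GC content, the ratio showed no linear trend with it. Over the 43 tested members the correlation of GC content with the log2 ratio at 1 kb was -0.02 (Pearson) and 0.00076 (Spearman), as against 0.46 and 0.41 over all 10941 tested promoters. These are descriptions across genes of the same pair of libraries, which the genes share. The tested members ran from 45.0% GC (Psmd10) to 57.3% (Psmg2), and all protein-coding genes from 26.0 to 77.0%. Over so narrow a range the values do not show that the members lack the relation seen over all promoters. The 5 members with ratios over 5 at 1 kb, Psma1, Psma2, Psmb4, Psmb5 and Psmb8, had 48.9, 46.1, 51.4, 49.6 and 56.3% GC.

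**Figure D5:**
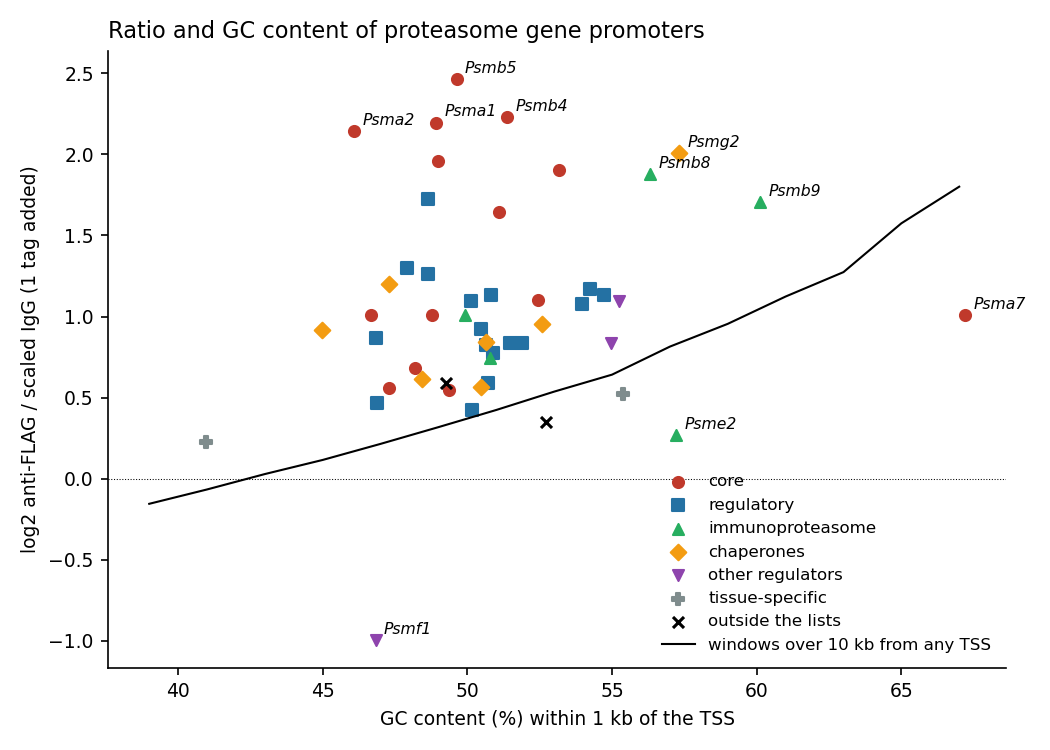
Log2 ratio of anti-FLAG to scaled IgG tags within 1 kb (y axis, 1 tag added) against GC content in percent (x axis) for the 50 genes, marked by class; the black line is the ratio in windows over 10 kb from any TSS. Core genes such as Psmb5, at 2.47, stand above the line at 49.6% GC, while Psma7 and Psme2 lie below it.

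Every member with a region of local enrichment was also higher in a promoter test at 1 kb or within 500 bp. Regions were merged 500-bp windows with at least 10 anti-FLAG tags, 2-fold over the local background and an exact Poisson p under 1e-05. Such a region overlapped the window within 1 kb of 12 of 50 members (24%), beside 7.33% of all protein-coding genes, and it uses the same tags as the promoter counts. Of all 22348 genes 11407 held under 20 tags within 1 kb, as against 7 of the 50 members. The shares of all genes here, with and without GC correction, include those genes, and the share among tested promoters is not given. The members with a region were Psma1, Psma4, Psmb3, Psmb4, Psmb5, Psmb6 and Psmb7 of the core, Psmc1, Psmc6, Psmd3 and Psmd4 of the 19S particle, and Psmd9. None of the 5 immunoproteasome genes had one. The region at Psmc1 ran over 750 bp, from 101348001 to 101348750 on chromosome 12, with 33 anti-FLAG and 6 IgG tags, and that at Psmd3 over 750 bp with 27 and 5. With the GC correction 5 members kept a region, Psmb5, Psmb6, Psmc1, Psmd3 and Psmd4 (10%), beside 2.85% of all genes. Psma1, the member that passed the corrected promoter test at 1 kb, was not among them.

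Some values depended on where the annotation places the start. The gene end used for Psma6 lies far upstream of the start of its transcript with the longest coding sequence, which is 14553 bp further along the gene. Around that start Psma6 had 40 anti-FLAG and 9 IgG tags at 1 kb (log2 ratio 2.04, exact adjusted p = 0.000372) and 23 against 2 within 500 bp (exact adjusted p = 0.000544), in place of 15 against 9 and 7 against 6. The RefSeq start of Psma6 was the start used here. Starts from RefSeq (table of GRCm38.p6, placed on NCBIM37 by exact match of 300 bases) were found for 41 of the 50 members, of which 35 lay within 100 bp of the start used. The RefSeq start of Psmf1 lies 2876 bp downstream, where it had 28 anti-FLAG and 15 IgG tags (log2 ratio 0.87, exact adjusted p = 0.110), in place of 3 against 7 and -0.99. For Psmb9 it lies 434 bp downstream, with 18 against 2 tags within 1 kb (log2 ratio 2.67, exact adjusted p = 0.00333), and 8 against 2 within 500 bp, which did not pass (exact adjusted p = 0.126). Psmb8 had 12 against 2 tags at 1 kb around its RefSeq start, 474 bp downstream, in place of 10 against 2, and stayed under the tag minimum. The RefSeq starts were looked up after the values were seen.

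A further annotated TSS lay within 2 kb for 15 of the 50 members, so that their tags may not belong to 1 gene alone. Of these 5 of 13 tested were higher at 1 kb with a pooled ratio of 2.21 (1.80 to 2.72), against 9 of 30 of the members without one with a pooled ratio of 2.18 (1.92 to 2.48), beside 29.7% of all tested promoters. The called ones with a neighbour were Psma2, Psma4, Psmb5, which lies beside the microRNA gene Mir686, Psmd3 and Psmg2.

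In sequence, member promoters were rich in CpG, with a median observed to expected CpG ratio of 0.61 within 1 kb, against 0.47 over all genes. In the 300 bases around the TSS a GC box was present in 29 of 50 members (58%, against 43.5% of all protein-coding promoters), and a CCAAT box in 20 of 50 members (40%, against 37.9% of all protein-coding promoters). CCAAT boxes were in 9 of 14 core promoters and in 6 of 17 of the 19S particle. The ARE core was in 7 of 50 members (14%, against 12.5% of all protein-coding promoters), namely Psmb2, Psmb5, Psmb6, Psmc6, Psmd7, Psmd12 and Psmd9, and thus in the constitutive catalytic genes Psmb5 and Psmb6 but not in Psmb7. At 1 kb Psmb5, Psmb6, Psmc6 and Psmd9 of these were higher, and Psmb2, Psmd7 and Psmd12 were not. Of all tested promoters 29.7% were higher, and with the GC correction none of these genes passed at 1 kb. Whether the calls go with the motif was not tested. The interferon-stimulated response element was in 6 of 50 members (12%, against 3.79% of all protein-coding promoters), none of them an immunoproteasome gene, the gamma-activated site in 5 of 50 members (10%, against 7.94% of all protein-coding promoters), the CRE in 2 of 50 members (4%, against 2.33% of all protein-coding promoters) and TATAAA in 5 of 50 members (10%, against 13.4% of all protein-coding promoters). Matches of different motifs overlapped in 2 members. The RefSeq starts of Psmb8, Psmb9 and Psme1 lie 474, 434 and 371 bp downstream of the starts used, outside the 300 bases. Sequence at those starts was not searched, so a missing match at these genes holds for the searched window only.

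Genes that work with the proteasome but carry other names were counted for comparison. Of 30 such genes (among them assembly factors, ubiquitin genes and the regulators Nrf1 and Nrf2), 4 of 22 tested were higher at 1 kb, beside 29.7% of all tested promoters, and 0 were lower. Their median log2 ratio was 0.81, against 0.59 over all genes. Over the 22 tested ones it was also 0.81, below the 0.88 over all tested promoters. Nfe2l2, which encodes Nrf2, had 21 anti-FLAG and 2 IgG tags (log2 ratio 2.88, exact adjusted p = 0.00125), and Nfe2l1, which encodes Nrf1, an activator of proteasome genes, 22 and 3 (2.53, exact adjusted p = 0.00204). Nfyb, a subunit of NF-Y, had 19 against 6 (exact adjusted p = 0.0354). None of the 4 passed with the GC correction. Pomp, the chaperone of core maturation, had 25 against 11 (exact adjusted p = 0.0595). Of genes of antigen processing, Tap1, the neighbour of Psmb9, had 15 against 3, and H2-D1, a class I gene, 7 against 9, both under the tag minimum. The TSS of Tap1 lies at position 34324498 on chromosome 17 and that of Psmb9 at 34324709. Their windows at 1 kb overlap over most of their length, so the tags of Tap1 are no separate count from those of Psmb9.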

How the data were processed

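Anti-FLAG and IgG precipitates from the same cells were sequenced, 1 library each. The authors deposited BED files with 1 line per tag of 36 bp, and the score column as deposited by the authors holds the same value in every line and was not used. How reads were aligned and filtered is not given in the sources used here. No lines of a library repeated a position and strand, and 4 anti-FLAG and 2 IgG tags ran past a chromosome end.

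Tags were moved 77 bp downstream and counted around the 5′ ends of 22348 protein-coding genes (GENCODE vM1, NCBIM37). IgG was scaled by 0.994 to the library totals. Each window past the tag minimum (20 at 1 kb, 10 at 500 bp) had a 2-sided exact binomial test with Benjamini-Hochberg adjustment over all tested windows at 0.05. Ratios carry exact 95% intervals, and log2 ratios add 1 tag to each count. For the GC correction, the expected ratio came from 500-bp windows over 10 kb from any TSS in strata of 2 GC points. Alternatives changed the scaling, shift, GC correction, start site, window, tag minimum and pseudocount. The procedure was tested on simulated data (SciPy 1.17.1, pandas 2.3.3, NumPy 2.4.6). Full values go to members past either test, to immunoproteasome members and to the highest and lowest of each class. Members and lists were chosen with earlier results of these data known. Some genes of the comparison lists are not reported here.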

Additional observations from a re-analysis of the deposited data

How the results depend on the processing

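No paired analysis was possible because each antibody has 1 library, whose number only names it, and for the same reason no library could be left out. The GC correction moved the counts of calls most. With it 1 member in place of 14 was higher at 1 kb and 2 in place of 17 within 500 bp, and 5 in place of 12 overlapped a region. Without the correction, regions at p under 1e-07 overlapped 6 of the 50 members, beside 687 of all 22348 protein-coding genes. With the correction the median log2 ratio became 0.55 in place of 0.98 for all members, 1.04 in place of 1.37 for the core and 0.56 in place of 0.93 for the 19S genes, and the pooled ratios 1.64, 2.22 and 1.55 in place of 2.19, 2.92 and 2.04. That of the immunoproteasome genes became 1.29 in place of 1.99. Psme2 turned to a log2 ratio of -0.52 and Psmc3ip to -0.11, neither called in any case.

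With 500 bp either side, the medians of all members, the core and the 19S genes were 1.36, 2.07 and 1.33 and the pooled ratios 3.14, 4.33 and 3.04, and Psmb1 turned to -0.28. With 2.5 kb, 8 of 49 members were higher, beside 2132 of 20308 promoters, the medians were 0.59, 0.81 and 0.64 and the pooled ratios 1.55, 1.79 and 1.54, and Psmc2 turned to -0.048. A minimum of 20 tags within 500 bp left 17 members to test, of which 9 were higher, beside 1875 of 3009 promoters. Taking the start of the longest coding sequence gave a core median of 1.78. Background-bin scaling raises every log2 ratio by 0.13 before the added tag and turned none of the named genes. This scaling, unshifted tags, other tag minimums at 1 kb, a pseudocount of 0.5 and the RefSeq starts, which were chosen after seeing the data, left the counts of calls at 1 kb and within 500 bp within 1.5 times. For changes that no value above accounts for, the cause was not tested. Depth limits Psmb8, Psmb9 and Psma7, which held too few tags for a test.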
